A study of Rattus norvegicus with 16 samples.

Results

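The microRNA (miRNA) hairpins rno-mir-338, rno-mir-219-1 and rno-mir-219-2 were examined, 3 of the 392 pre-miRNA hairpins in the profiles, and are written below without the species prefix. They were chosen by name, as every rat hairpin called mir-338 or mir-219 on the sense strand, and their reads were summed per hairpin arm and library. Small RNA was sequenced from 6 whole tissues (brain, heart, kidney, liver, spleen and testis) of adult male rats of the inbred strains BN-Lx (polydactyly-luxate syndrome brown Norway) and SHR (spontaneous hypertensive rats). The 6 tissues of a strain came from 1 rat, giving 12 libraries, and 4 further livers brought the liver to 3 libraries per strain. The study names no treatment or genetic modification of these animals. The libraries come from whole tissue, so the cell type that expressed a miRNA was not measured, and fewer cells of a type and less RNA per cell cannot be told apart. The mRNAs that define oligodendrocytes are not measured in small RNA libraries, so the cell type could not be checked.

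A miRNA gene is transcribed as a hairpin from which Drosha and Dicer cut a short duplex, and an arm of the duplex is loaded into the RNA-induced silencing complex. The loaded miRNA finds its target mRNAs mainly through its seed, bases 2 to 8 from the 5' end. In the central nervous system, miR-219 and miR-338 are known as miRNAs of the oligodendrocyte lineage, whose cells wrap axons in myelin, and they promote the step from precursor to myelinating cell by repressing factors that hold precursors undifferentiated.

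The mature sequences are shown because the seeds tell the arms apart, with bases 2 to 8 in capitals. They were taken from RefSeq (assembly GRCr8), where all 3 hairpins were found.
miR-338-3p: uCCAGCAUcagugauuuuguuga
miR-338-5p: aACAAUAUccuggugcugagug
miR-219a-5p: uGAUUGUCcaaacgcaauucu
miR-219a-2-3p: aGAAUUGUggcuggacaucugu
miR-219a-1-3p: aGAGUUGCgucuggacgucccg
The 5 sequences carry 5 different seeds, and none of them was shared with another of the 724 mature rat miRNAs in the RefSeq table. Both mir-219 hairpins give the same miR-219a-5p, so this seed comes from 2 loci. Their 3' arms differ at 7 of 22 bases, of which A4G and U8C (mir-219-2 base, position from the 5' end, mir-219-1 base) fall in the seed.

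The hairpin of mir-338 lies at chr10:105796342-105796407 on the minus strand, within the gene Aatk, which runs on the same strand. The mir-219-2 hairpin lies at chr3:33516504-33516599 on the minus strand, within the span of Cercam on the opposite strand and of the long non-coding RNA gene LOC120101515 on the same strand. That of mir-219-1 lies at chr20:4831580-4831689 on the plus strand, between Hsd17b8 and Ring1 and within neither of them. Exons and introns were not resolved here.

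The 16 libraries held between 26880 reads (BN-Lx testis) and 3229461 reads (a further SHR liver) that matched a hairpin perfectly. Levels are given in multiples of the library's outlier-corrected mean (ocm), which averages the reads of the arms of known loci after the 3 highest are dropped. The ocm was 31.5 reads for BN-Lx testis and 2263 for that SHR liver, its extremes. Of 10 marker arms for the 6 tissues, 9 were higher in both libraries of their own tissue than in every library of another tissue. The exception was mir-192-5p, listed for kidney, which reached 172 times the ocm in liver and at most 76.0 in kidney. Reads carried no molecular identifiers, so intervals and limits below cover counting error only. A count of 0 allows up to 3 reads.

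The first comparison asked where among the 6 tissues each arm was found. mir-338-3p and mir-219-2-3p stood at similar levels in brain, near 5 and 4 times the ocm, and both were far lower in the other 5 tissues. They differed outside brain, where mir-338-3p was found in all libraries and mir-219-2-3p was near the limit of detection.

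Brain gave 7060 reads of mir-338-3p in the BN-Lx rat and 5700 in the SHR rat, or 4.94 and 5.02 times the ocm. It was the 39th most read of 574 arms in the BN-Lx library and the 37th of 535 in the SHR library. Its level in liver was 0.177 (BN-Lx) and 0.228 (SHR), and in spleen 0.224 and 0.441. Both brain libraries lay more than 10 times above every other library of the same strain.
In heart the level of mir-338-3p was 0.178 (BN-Lx) and 0.237 (SHR), and in testis 0.159 and 0.341, the latter from 5 and 12 reads. Kidney was lowest, at 0.0762 and 0.0844. Ordered by the mean of the strains, brain was followed by spleen, testis, heart, liver and kidney. No pair of neighbours among the 5 tissues after brain passed an adjusted p of 0.05 for mir-338-3p in edgeR's quasi-likelihood test, with adjusted p of 0.0537 for spleen and testis, 0.200 for testis and heart, 0.900 for heart and liver and 0.0718 for liver and kidney. Of all 458 arms tested, 28.4%, 29.3%, 20.3% and 18.6% were called in these contrasts. On edgeR's scale testis lay below heart, at a log2 fold change of -0.95, so the place of testis in the order depends on the scaling.

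mir-219-2-3p, the arm that gave most of the reads of its hairpin, had 6258 reads in the BN-Lx brain and 4553 in the SHR brain, or 4.38 and 4.01 times the ocm. It ranked 43rd in both brain libraries. The 10 other libraries of the six-tissue set held 46 of its reads between them, and the largest counts outside brain were 13 and 12 reads in kidney.
Liver gave 4 (BN-Lx) and 3 (SHR) reads, spleen 1 and 2, heart 3 and 4, and testis 2 and 2. The testis reads made the second highest level, 0.0634 and 0.0568 times the ocm, because these libraries were the shallowest. From reads pooled over the strains and scaled to the ocm, brain exceeded spleen by 1979-fold with an exact 95% interval from 677 to 9596. Over testis the same ratio was 70.3, with an interval from 27.5 to 258.

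**Figure D1:**
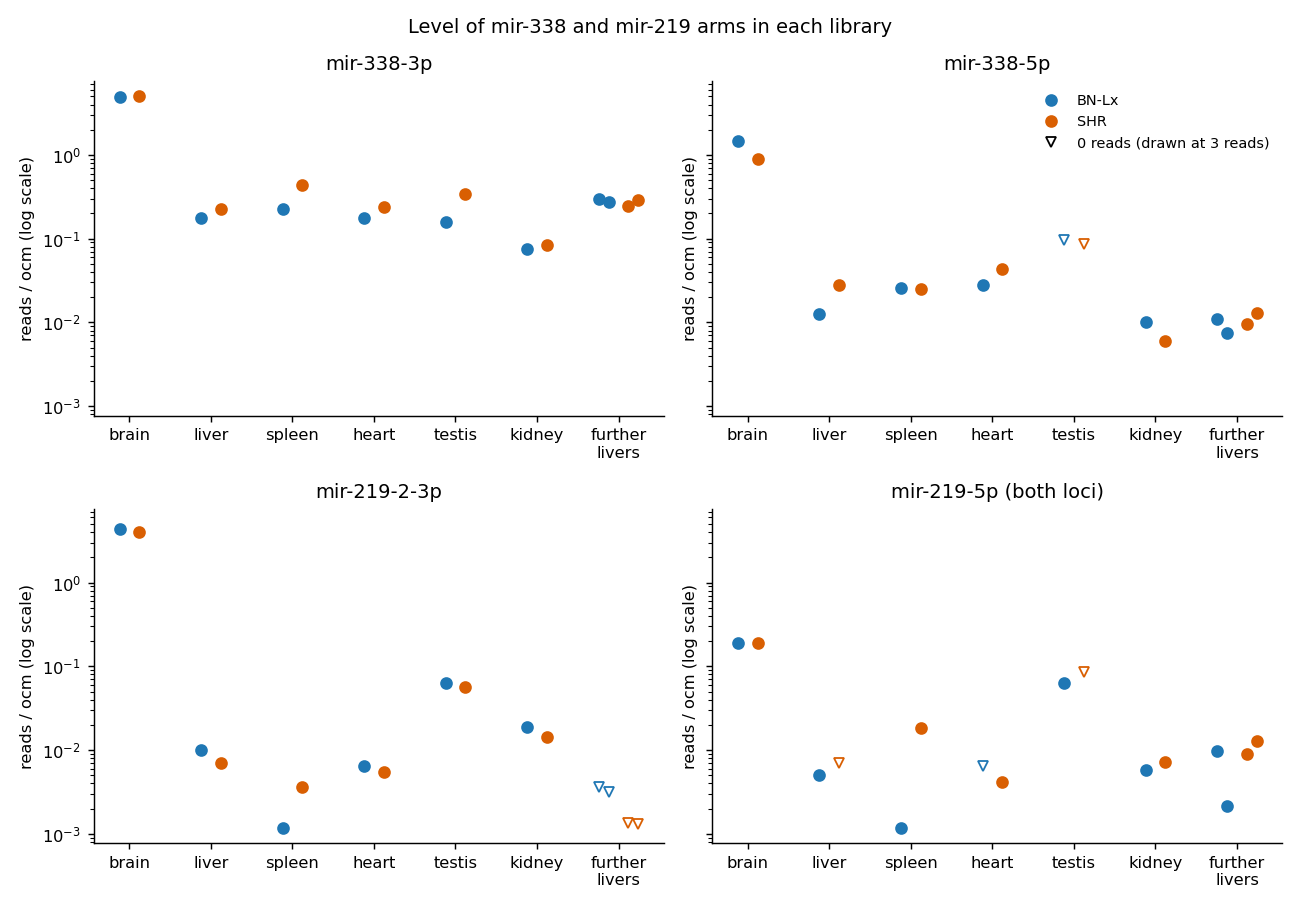
Level of each arm in the 16 libraries as reads divided by the library's ocm, on a log axis, with BN-Lx in blue and SHR in orange and with open triangles at the level of 3 reads for libraries with 0 reads. Brain is highest for all 4 arms, mir-338-3p stays between 0.0762 and 0.441 elsewhere, and mir-219-2-3p has 0 reads in the 4 further livers.

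mir-338-5p, the partner arm, had 2102 reads in the BN-Lx brain and 1011 in the SHR brain, or 1.47 and 0.891 times the ocm. Outside brain its level was highest in heart, at 0.0283 (BN-Lx) and 0.0439 (SHR), among the tissues where it was read. Testis had 0 reads in both libraries, and as 3 reads there are 0.0952 (BN-Lx) and 0.0853 (SHR) times the ocm, its place in the order is not known. Brain was 52.0-fold above heart in BN-Lx and 20.3-fold in SHR, and at least 15.5-fold and 10.4-fold higher than testis when 3 reads per library are taken as the limit.

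The 5' arm of mir-219 was read far less often than the 3' arm of mir-219-2. Summed over both loci it had 270 reads in the BN-Lx brain and 215 in the SHR brain, each 0.189 times the ocm. No other library of the six-tissue set held more than 10 of its reads, that maximum being SHR spleen. As deposited, 203.5 and 154 of these brain reads stand under mir-219-2 and 66.5 and 61 under mir-219-1, with reads that fit both hairpins divided between them. The 3' arm of mir-219-1 had 1 read over the 16 libraries, which was in BN-Lx brain.

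The tissues were then tested in an edgeR fit of the 12 libraries with tissue and strain as terms, in which the strains serve as the replicates of a tissue. Higher in brain at an adjusted p of 0.05 were 36.5% of the 458 arms tested against liver, 32.3% against spleen, 33.6% against heart, 26.2% against testis and 34.5% against kidney. In all 5 contrasts at once, 82 arms were higher in brain, or 17.9%. Of the 6 mir-338 and mir-219 arms, 5 passed the filter on low counts, and the 3' arm of mir-219-1 did not. Outside brain, mir-219-2-5p had at most 3 reads and mir-219-1-5p at most 7 in a library of the six-tissue set. These arms passed the filter only through their brain reads, so calling them higher in brain is not independent of the filter. Higher in all 5 contrasts were mir-338-3p, mir-338-5p, mir-219-2-3p and mir-219-2-5p, the last as deposited, with mir-338-5p set against 0 reads in testis. With 1 rat per strain, the spread behind these p-values is what remains between the strains within tissues after a shared strain shift. It is pooled over the 6 tissues and is not the spread among animals of a tissue.

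For mir-338-3p the log2 fold change of brain, on the scale of edgeR's TMM factors, was lowest against spleen, at 3.36 (SE 0.51, adjusted p = 0.000164 by edgeR), and highest against kidney, at 5.41 (SE 0.56, adjusted p = 1.8e-05). Liver, heart and testis lay between them at 4.07, 3.87 and 4.83. The value over liver was 2.92 with the further livers in place of the six-tissue livers and 5.30 when scaled to total reads.
For mir-219-2-3p it was lowest against testis, at 6.60 (SE 0.67, adjusted p = 3.2e-05 by edgeR), and highest against spleen, at 10.16 (SE 0.75, adjusted p = 2.64e-06). Those over liver, heart and kidney were 8.35, 8.69 and 7.43. In each of the 5 contrasts the value of mir-219-2-3p was the larger of the pair.
mir-338-5p had fold changes of 5.24 over liver, 4.86 over spleen, 4.26 over heart and 6.62 over kidney, with adjusted p between 3.5e-05 and 0.000284 by edgeR. All 458 arms had a median log2 fold change between 0.21 (kidney) and 1.25 (testis) on this scale and between 0.75 (kidney) and 1.65 (liver) when scaled to total reads, so the values of these 3 arms lay above the general shift towards brain in each contrast given.

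**Figure D2:**
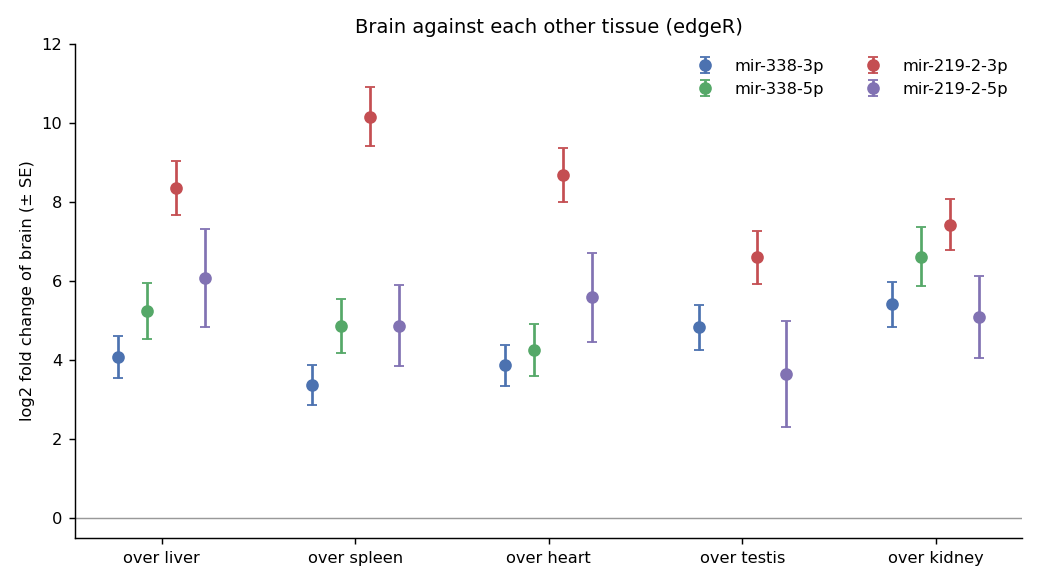
Log2 fold change of brain over each of the 5 other tissues with its SE in edgeR, for 4 arms. The values of mir-219-2-3p, between 6.60 and 10.16, lie above those of mir-338-3p, between 3.36 and 5.41, in each contrast, and mir-338-5p over testis is left out because testis had 0 reads.

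The 5' arm of mir-219 gave a weaker test. mir-219-2-5p had log2 fold changes from 3.66 over testis (SE 1.34, adjusted p = 0.0440 by edgeR) to 6.07 over liver (SE 1.23, adjusted p = 0.00118). The call over testis was lost without the BN-Lx brain (adjusted p = 0.154 by edgeR) and without the SHR brain (adjusted p = 0.0923). With both loci summed, a test against testis no longer passed, at 3.49 (SE 1.36, adjusted p = 0.0557 by edgeR), while the other 4 contrasts did, at 4.23 to 5.96. mir-219-1-5p passed against liver, heart and kidney with both brain libraries, but against none of them in DESeq2 (adjusted p from 0.0659 to 0.136) or without the BN-Lx brain (0.103 to 0.193), and against heart and kidney it also failed without the SHR brain (0.0537 and 0.0789). With both, its values over spleen and testis, 2.79 and 2.21, had adjusted p of 0.0622 and 0.338 in edgeR. In each brain library only 3 reads matched mir-219-1 alone, and the rest of its count was its part of reads that fit both loci. These tests therefore do not show that the mir-219-1 locus itself was higher in brain.

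The rule by which the study called a miRNA tissue-specific was also applied, a level at least 5 times that of every other tissue in each strain. It was met in brain by 131 of the 698 arms with a read, or 18.8%. Among these were mir-338-3p, mir-338-5p and mir-219-2-3p. The level of mir-338-3p in brain was 22.0-fold above the next library in BN-Lx and 11.4-fold in SHR, and that of mir-219-2-3p 69.0-fold and 70.6-fold. mir-338-5p met the rule also with testis at its limit of 3 reads, as given above. Just outside the rule was mir-219-2-5p, at 4.49-fold in BN-Lx, where the next library was testis with 1 read, and it met the rule when scaled to total reads. In SHR it was 24.9-fold above the highest library with a read, but only at least 1.59-fold above testis, which had 0 reads. mir-219-1-5p, at 1.47-fold in BN-Lx and 4.23-fold over the highest SHR library with a read, missed the rule in both strains.

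The reads were then placed on the hairpins to ask which arm and which ends were found. On mir-338 the 3' arm was the main arm in every library, with 77.1% of the reads in the BN-Lx brain (exact 95% interval 76.2 to 77.9) and 84.9% in the SHR brain (84.1 to 85.8). The share was higher in the 4 further livers, between 95.7% and 97.3%. That library set holds no brain, and the part of the set in this difference was not tested. Of the 9 other six-tissue libraries with at least 10 reads of the hairpin, 8 lay between 84.4% and 94.6%, and in SHR testis all 12 reads were of the 3' arm. BN-Lx brain had the lowest share of all, although its interval met those of BN-Lx heart and kidney, and SHR brain lay just above SHR heart.
The brains differed more in the 5' arm than in the 3' arm. SHR over BN-Lx, mir-338-5p had a ratio of 0.606 (exact 95% interval 0.561 to 0.653) and mir-338-3p of 1.02 (0.982 to 1.05) after scaling to the ocm. The ratio of mir-219-2-3p was 0.916 (0.882 to 0.952). These compare a single library of each strain. Of the 232 arms with at least 100 reads in both brains, the middle 90% had log2 ratios between -1.03 and 0.66, and mir-338-5p lay inside this range at -0.72.

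**Figure D3:**
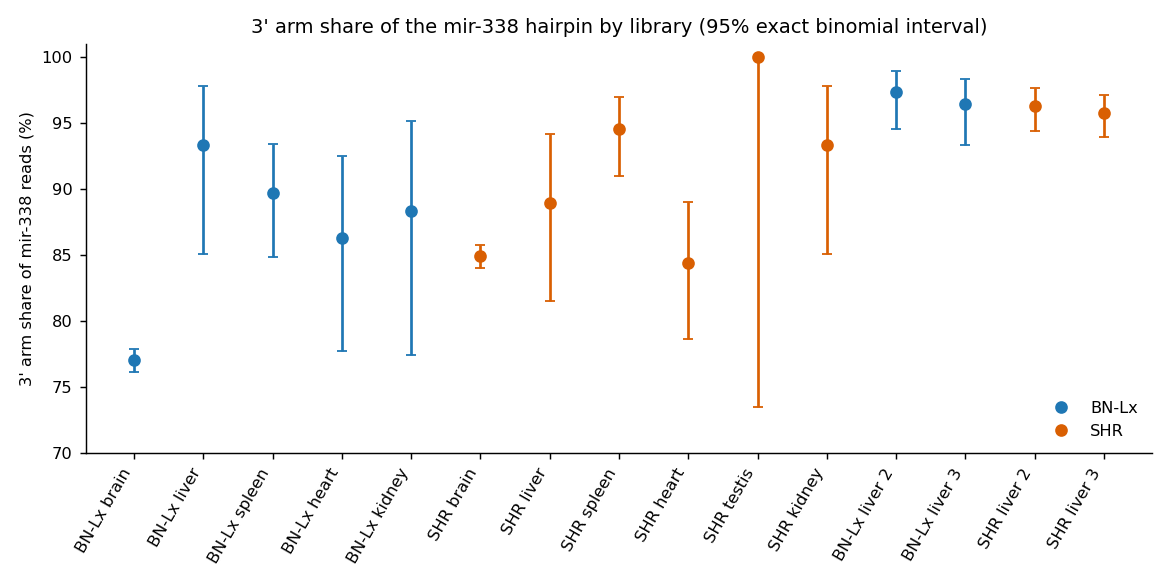
Share of the 3' arm among the reads of the mir-338 hairpin in each library with at least 10 of its reads, with exact 95% binomial intervals, on an axis that starts at 70%. The brain libraries, at 77.1% and 84.9%, lie below the further livers, at 95.7% to 97.3%, which are another library set. The six-tissue livers are at 93.3% (BN-Lx) and 89.0% (SHR), and SHR heart, at 84.4%, lies just below SHR brain.

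On mir-219-2 the 3' arm had 96.9% of the reads in the BN-Lx brain (exact 95% interval 96.4 to 97.3) and 96.7% in the SHR brain (96.2 to 97.2). The brains differed by less than counting error here. Of the other libraries only the kidneys held 10 reads or more of this hairpin, with 3' shares of 83.9% (54.4 to 96.0) and 82.8% (57.2 to 98.2).

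Most reads of an arm began at the same base. mir-338-3p began at hairpin position 41, as the RefSeq sequence does, in 94.0% of its reads in the BN-Lx brain and 93.6% in the SHR brain. The next start, position 42, had 5.82% (exact 95% interval 5.29 to 6.39) and 6.18% (5.56 to 6.83). A start 1 base later shifts the seed by 1 base, as the shifted read shows with bases 2 to 8 in capitals.
miR-338-3p from position 42: cCAGCAUCagugauuuuguuga
The later start had 7.29% to 14.3% in the livers, spleens, hearts and kidneys of the six-tissue set, above both brains, and 2.35% to 6.53% in the 4 further livers. In SHR testis 0 of 12 reads had it. The highest value, in BN-Lx liver, came from 10 of 70 reads, with an interval from 7.07 to 24.7 that lies above the brain intervals, whereas those of the other 7 six-tissue libraries overlap them.

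mir-219-2-3p began at position 62 in 97.7% of its reads in the BN-Lx brain and 97.6% in the SHR brain. Its second start lay 1 base earlier, at position 61, with 2.05% (exact 95% interval 1.71 to 2.43) and 2.09% (1.69 to 2.54). Such reads carry the seed below.
miR-219a-2-3p from position 61: gAGAAUUGuggcuggacaucu
The 2 brain libraries thus gave near-equal shares of the second start for each of these arms, and it lay on opposite sides of the main start. mir-338-5p and mir-219-2-5p began at their RefSeq first base in 98.6% and 98.0% of the reads in BN-Lx brain and 99.0% and 97.1% in SHR brain.

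The 3' ends varied more than the 5' ends. mir-338-3p was read as 23 nt, ending at position 63, in 47.7% of BN-Lx and 44.1% of SHR brain reads, and as 22 nt in 36.1% and 39.1%. mir-219-2-3p was 22 nt in 89.6% and 87.9% of the brain reads. mir-338-5p was mainly 21 nt, 1 base shorter than the RefSeq sequence, in 89.3% and 93.9%.
Of the mir-338-3p reads ending at 62 or 63, those ending at 63 made 57.6% in the BN-Lx brain and 54.4% in the SHR brain. In the further livers they made 67.0% and 75.4% (BN-Lx) and 89.7% and 69.2% (SHR), all above the six-tissue livers at 44.6% and 60.7%. The highest of them was SHR liver 2 (exact 95% interval 86.7 to 92.3), apart from the other SHR liver of that set (65.3 to 72.8). The further livers were also sequenced more deeply, and the part of the library set in this difference was not tested.

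**Figure D4:**
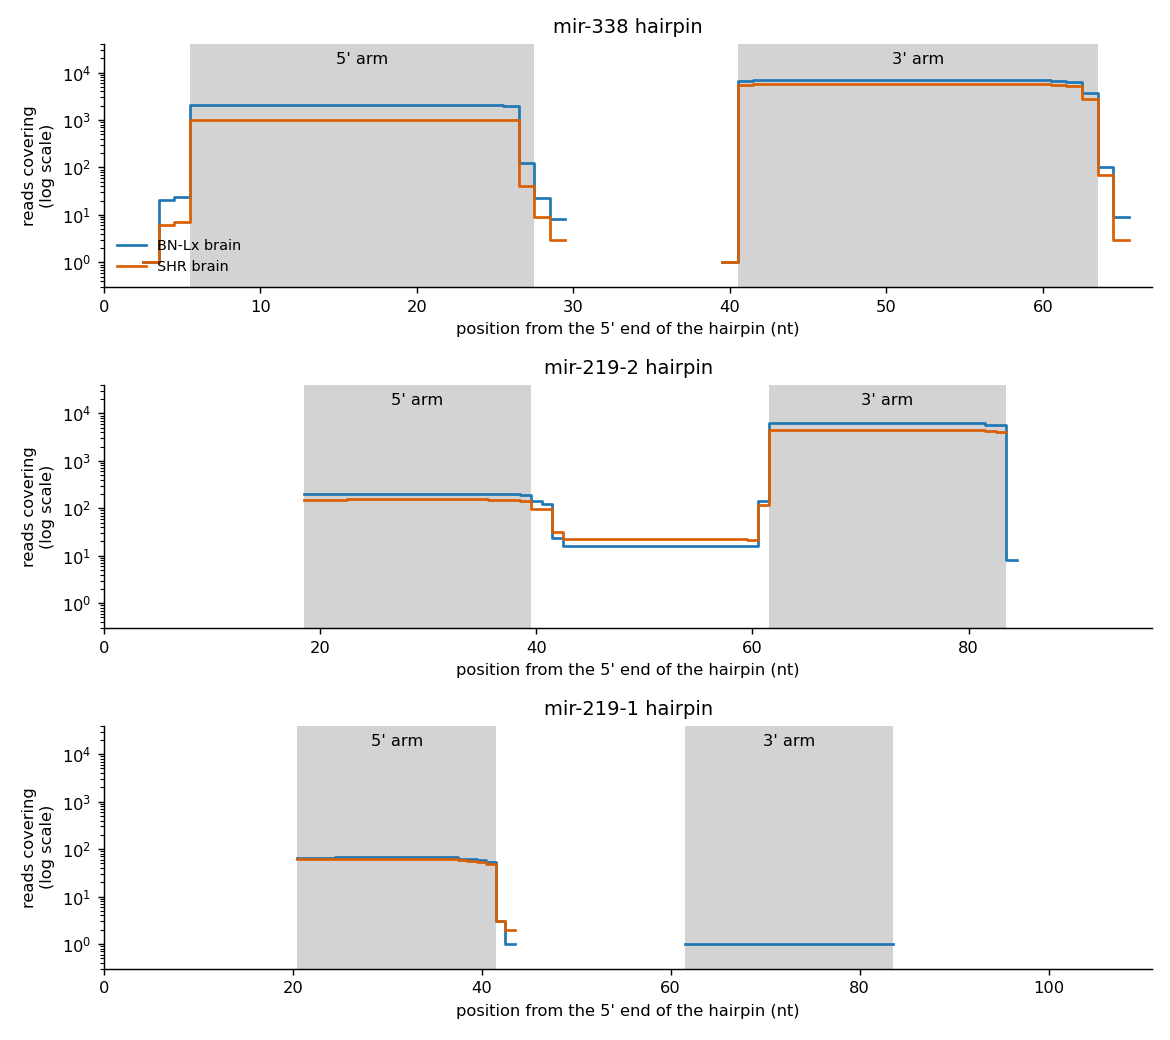
Reads covering each position of the 3 hairpins in the brain libraries, on a log axis, with the RefSeq mature arms shaded. mir-338 and mir-219-2 have reads on both arms, mir-219-1 almost entirely on the 5' arm, and mir-219-2 has a low plateau between its arms from 16 reads in BN-Lx and 22 in SHR.

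Reads between the arms were found on mir-219-2 in brain. There were 16 of them in BN-Lx and 22 in SHR, or 0.247% and 0.465% of the reads of the hairpin, and 29 of the 38 ran from position 42 to 62. Position 42 directly follows the most read 5' product, which ends at 41. In SHR brain a 5' product of 24 nt, with 10 reads or 6.49% of the arm, ended at 42. Position 62 is the first base of the 3' arm, in capitals here.
mir-219-2 between the arms: uacgagucugcggccaaccgA
No read of this kind was found on mir-219-2 in the 14 libraries other than brain, or on mir-219-1 in any library. Between the arms of mir-338 there is no room for a read of this length. As the hairpin itself had at most 15.5 reads in those 14 libraries, a share of this size would not have been detectable there.

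The locus that gave the mir-219 5' arm was read from its longer reads. The 5' arms of the hairpins share 21 bases and first differ at position 22 from the 5' end (U22C, mir-219-2 base first), in capitals in the 23 nt reads below.
mir-219-2 5' arm, 23 nt: ugauuguccaaacgcaauucuUg
mir-219-1 5' arm, 23 nt: ugauuguccaaacgcaauucuCg
In BN-Lx brain 140 reads matched only mir-219-2 and 3 only mir-219-1, a share of 97.9% for mir-219-2 (exact 95% interval 94.0 to 99.6). In SHR brain there were 96 and 3, a share of 97.0% (91.4 to 99.4). A further 127 and 116 reads ended within the shared bases and fit both loci. In both rats the reads that could be told apart thus came mainly from mir-219-2, the locus whose 3' arm is abundant in brain. Counting only reads at least 2 bases past the shared part, the shares were 99.2% and 97.9%.

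The further livers showed the other locus. All 26 of their locus-specific 5' reads matched mir-219-1, namely 2 and 2 from BN-Lx and 9 and 13 from SHR, and 0 matched mir-219-2, which allows a share of up to 11.5%. SHR spleen had 4 reads specific to mir-219-1 and 0 to mir-219-2, while BN-Lx spleen had 0 and 1 and BN-Lx testis 1 and 1. Kidney held 1 and 3 for mir-219-1 and 2 and 2 for mir-219-2, so both loci were read there. In the 2 livers of the six-tissue set no 5' read was locus-specific. The brain shares and those of the further livers did not overlap, but 2 libraries against 4 cannot reach p below 0.133 in an exact two-sided permutation test. The set of the further livers holds no brain, so tissue and library set cannot be told apart in this difference.

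**Figure D5:**
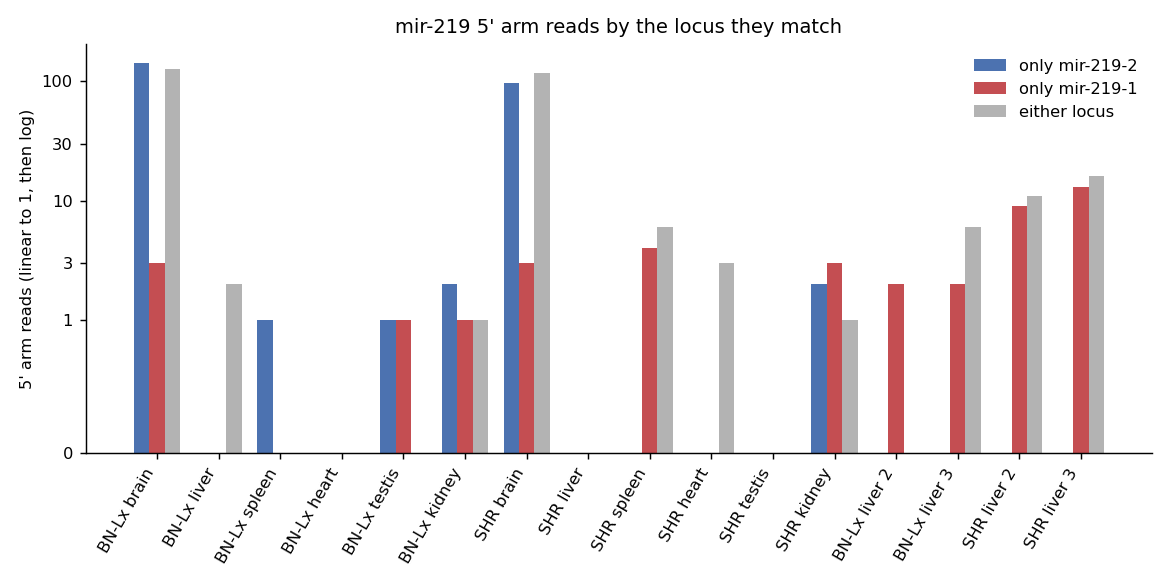
Reads of the mir-219 5' arm in each library that match only mir-219-2, only mir-219-1 or either locus, on an axis that is linear to 1 and logarithmic above. In brain 140 and 96 reads are specific to mir-219-2 and 3 and 3 to mir-219-1. The further livers, which are another library set, hold only reads specific to mir-219-1 or shared.

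The liver was also read in 2 library sets, and they differed for mir-219-2-3p. The six-tissue livers held 4 and 3 reads in 969290, or 7.22 per 1000000 reads. The 4 further livers held 0 reads in 8834648, which allows up to 0.340 per 1000000 reads. Set against this limit, the six-tissue livers stood 21.3-fold higher, a value that leaves out the counting error of their 7 reads. By the same measure brain was at least 8785-fold above the further livers on the ocm scale, where the ratio over the six-tissue livers was 494 (exact 95% interval 240 to 1229).
mir-338-3p did not follow this pattern, with 172 reads per 1000000 in the six-tissue livers and 192 in the further livers, a ratio of 0.897 (0.761 to 1.05). mir-338-5p was between, at 17.5 and 7.47 per 1000000 reads and a ratio of 2.35 (1.29 to 4.05).
The neuronal miRNA mir-124-3p moved with mir-219-2-3p, since its 3 loci together had 69.1 reads per 1000000 in the six-tissue livers and 2.72 in the further livers, a ratio of 25.4 (15.8 to 42.4). Another neuronal miRNA, mir-128-3p, had a ratio of 3.67 (3.28 to 4.10). As a share of its depth-scaled reads in brain of the same strain, mir-219-2-3p stood at 0.0231% to 0.407% in the liver, spleen, heart and kidney libraries of the six-tissue set. In testis it stood at 1.27% and 1.30%, from 2 reads in each library. mir-338-3p stood at 1.47% to 7.38% in the first 4 tissues. mir-124-3p stood at 0.0395% to 1.03% in them and at 16.0% (BN-Lx) and 1.60% (SHR) in testis. The liver miRNA mir-122-5p stood at 0.0256% to 0.0825% of its liver level in brain, spleen, heart and kidney. Whether reads passed between libraries of the six-tissue set was not tested.

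The second comparison set the strains side by side in liver, for which the further livers were made. mir-338-3p stood at 0.177, 0.270 and 0.296 times the ocm (BN-Lx) and at 0.228, 0.246 and 0.288 (SHR), with means of 0.248 ± 0.0625 and 0.254 ± 0.0307 (SD, n = 3 livers each). The strains overlapped. In edgeR the log2 fold change of SHR over BN-Lx was 0.07 (SE 0.44, adjusted p = 0.999). mir-338-5p stood at 0.0126, 0.00742 and 0.0109 (BN-Lx) and at 0.0282, 0.00947 and 0.0128 (SHR), and its log2 fold change was 0.63 (SE 0.59, adjusted p = 0.999 by edgeR). At each of the 3 replicate numbers it was higher in SHR, although the labels do not pair the animals. With the number as a block the log2 fold change was 0.57 (adjusted p = 0.722 by edgeR). With an SE of 0.44, the test could not have shown a small difference.
None of the mir-219 arms passed the filter in liver. The 3' arm of mir-219-2 had reads in the six-tissue liver of each strain and in no other. Reads of the 5' arm, both loci summed, were 2, 2 and 8 for BN-Lx and 0, 20 and 29 for SHR, or 0.00561 ± 0.00380 and 0.00728 ± 0.00658 times the ocm (SD, n = 3 livers each), so the strains overlapped after scaling to depth. Over all 271 arms tested edgeR called 0, or 0.0%, with 6 at an unadjusted p under 0.05, and DESeq2 called 0, with 10.

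The antisense strand of the hairpins was read rarely. The hairpin opposite mir-338 had 8 reads over the 16 libraries, of which 3 were in SHR testis. The one opposite mir-219-2 had 24 reads over the 16 libraries, with a maximum of 6 in a library, and that opposite mir-219-1 had 8. In brain, no library had more than 3 antisense reads of any of these hairpins.

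Other miRNAs of brain cell types were set beside these arms from lists. A listed miRNA need not be particular to its cell type, which was not measured. Of 11 tested arms of other miRNAs tied to the oligodendrocyte lineage (mir-138, mir-23a, mir-7a, mir-32 and mir-212), 3 were higher in brain than in all 5 tissues, beside 17.9% of all arms. They were mir-138-1-3p, mir-138-1-5p and mir-138-2-5p, named after their values were seen, and the 5' arms of the mir-138 loci share reads. Against liver 9 of the 11 were higher and 2 (mir-23a-3p and mir-32-5p) lower, with a median log2 fold change of 5.73 beside 0.46 for all arms tested, and against spleen 6 were higher and the same 2 lower, with a median of 2.92 beside 0.53. Against heart 8 were higher and 1 lower, against testis 5 and 0, and against kidney 8 and 2, with medians of 4.66, 3.73 and 4.09 beside 0.56, 1.25 and 0.21. Of all arms, 25.1% were lower in brain against liver, 24.2% against spleen, 21.6% against heart, 17.0% against testis and 25.8% against kidney. The highest of the list in brain was mir-138-1-5p, at 12.9 (BN-Lx) and 11.8 (SHR) times the ocm, above mir-338-3p. Its log2 fold change ran from 2.92 over spleen to 6.51 over heart, adjusted p at most 0.000223 by edgeR. The lowest was mir-23a-5p, with 1 read in the BN-Lx brain and 0 in the SHR brain.
Of 21 tested neuronal arms (mir-124, mir-9, mir-128, mir-132, mir-137 and mir-153), 18 were higher in brain than in all 5 tissues. Their median log2 fold change ran from 4.92 over testis to 7.61 over spleen. Reads are divided between the 3 loci of mir-124, the 3 of mir-9 and the 2 of mir-128, so these counts and medians hold the same measurement more than once. The 22 neuronal arms with reads ranged in brain from 21.8 and 23.2 times the ocm for mir-128-1-3p to 0.0112 and 0.0150 for mir-128-1-5p. Of 9 tested arms of blood, immune and vessel miRNAs (mir-223, mir-142, mir-451, mir-144 and mir-126), 0 were higher in all 5 contrasts by edgeR, and 1, mir-223-3p of myeloid cells, was lower in all 5, as were 6.33% of all arms. The median of these 9 ran from -5.42 over spleen to 0.68 over testis. The highest of them in brain was mir-126-3p, an endothelial miRNA, at 2.54 and 3.13, while mir-223-5p and mir-451-3p had 0 reads there.

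Likeness to other arms was described by Pearson's r of log2(level in ocm + 0.05) over the 12 six-tissue libraries, which all arms share and in which brain carries most of the variation, so no p is given. Among 402 other arms with at least 100 reads, mir-338-3p was most like mir-337-3p (r = 0.978). Next came both 3' arms of mir-128 (0.972 for mir-128-1 and 0.965 for mir-128-2), mir-128-2-5p (0.957) and mir-384-3p (0.956).
mir-219-2-3p was most like mir-496-3p (r = 0.998), the 3' arms of mir-9-1, mir-9-2 and mir-9-3 (0.994 each) and mir-543-3p (0.991), and the mir-9 loci share reads. The profiles of mir-338-3p and mir-219-2-3p had r = 0.936, which put mir-219-2-3p 42nd on the list of mir-338-3p and mir-338-3p 83rd on that of mir-219-2-3p. mir-338-5p came 11th on the list of its partner arm.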

How the data were processed

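For each of 16 libraries the authors deposited estimated counts, not normalised, for each pair of read start and end bases on a hairpin, a read that fits several hairpins being divided evenly between them. SOLiD reads were trimmed, mapped by the authors with SHRiMP to hairpins from miRBase and RGSC3.4, and kept where they matched perfectly. Reads of the 3 hairpins were assigned to the arm whose RefSeq midpoint lay within 15 nt. Other hairpins were split at 15 nt from their main read. By the study's methods, testis and an SHR liver were amplified by more PCR cycles than the other libraries, and the part of this in the levels was not tested. RefSeq hairpins held all 52 of the member sequences that the study lists.

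Tissues and livers were compared with edgeR 4.0.16 (quasi-likelihood test, TMM, filterByExpr, two-sided, Benjamini-Hochberg over all arms tested at 0.05) on counts rounded to whole numbers, with DESeq2 1.42.0 as an alternative, in R 4.3.3 with limma 3.58.1. The fit was tested on simulated counts. Shares have exact Clopper-Pearson intervals (95%) in scipy 1.17.1 with Python 3.11.15, numpy 2.4.6 and pandas 2.3.3, and figures were drawn with matplotlib 3.10.9. Named miRNAs are all arms of the 3 hairpins, their antisense hairpins, the 5 arms most like mir-338-3p and mir-219-2-3p, the tissue markers, and the highest and lowest arm in brain of each list. mir-124 and mir-128 in the liver sets were chosen after their values were seen. The hairpins and lists were chosen with earlier results of these data known. The piRNA clusters were not used.

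Livers share replicate numbers between strains. Across arms, the deviations of same-numbered livers from their strain means had correlations of 0.668, 0.582 and 0.308, each above 0.1. Replicate 1 is the six-tissue liver and the other numbers are the further livers. The correlations therefore cannot tell a pairing of animals from a difference between the library sets. The main liver fit used strain only, and the replicate number served as a block in an alternative. Alternatives changed 1 choice at a time: tool, scaling, filter, block, a left-out library, summed paralogues, testis, the fold of the 5-fold rule, a minimum of reads, read length, shared reads, pseudocount and correlation. The further livers in place of the six-tissue livers, and locus reads at least 2 bases past the shared part, were added after seeing the data.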

Additional observations from a re-analysis of the deposited data

Results flagged for a closer look

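The 16 reads between the arms of mir-219-2 in BN-Lx brain and the 22 in SHR brain lie outside the arms that the comparisons use, and exceed the 3 reads that a count of 0 allows. They start at position 42 and most end at 62, the first base of the 3' arm. The 5' arm of the antisense hairpin of mir-219-2 reached 6 reads in the third SHR liver, also more than 3 reads. It had 3 in the second SHR liver and 0 in the further BN-Lx livers, which were sequenced less deeply. Scaled to depth, the 6 reads were 0.00265 times the ocm. This is below the level of 3 reads in the further BN-Lx livers, 0.00318 and 0.00362, so the counts do not show a difference between these livers. The highest level of this arm was 0.00435, in BN-Lx heart. No cause was tested for the reads between the arms or for the antisense reads.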

How the results depend on the processing

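The count of 82 arms higher in brain than in all 5 other tissues stayed within 1.5 times under every alternative. It was 75 with the further livers in place of the six-tissue livers, and 116 without testis, where the contrast with testis was not required. With a brain library left out, the lone library is assumed to vary like the others. mir-338-3p, mir-338-5p and mir-219-2-3p kept their direction and call in all 5 contrasts and every alternative, while the log2 fold change of mir-338-3p over liver ranged from 2.92 (further livers) to 5.30 (total reads). mir-219-2-5p over testis passed in 3 of 9 alternatives, and its adjusted p ranged from 0.0239 to 0.154. It lost its call without BN-Lx brain (0.154) and without SHR brain (0.0923). mir-219-1-5p also lost its call over liver, heart and kidney without BN-Lx brain, at adjusted p of 0.112, 0.103 and 0.193, and over heart and kidney without SHR brain, at 0.0537 and 0.0789. In DESeq2 it lost all 3, at 0.0691, 0.0659 and 0.136. With the further livers in place of the six-tissue livers its adjusted p over liver was 0.0597. Over spleen it gained a call under RLE factors (0.0371), total reads (0.0278), summed paralogues (0.00775) and without the strain term (0.0444). The 5-fold rule gave 99 to 138 arms under other settings, and 189 and 159 in BN-Lx and SHR alone. In the livers, the replicate block left the count at 0, with 21 arms at an unadjusted p under 0.05, and every other alternative, each left-out liver included, also called 0 to 0 arms. Without the strain term, which is the block of the tissue fit, 98 arms were called. Counting only reads that match mir-219-2 alone moved its 3' share in brain to 97.8% and 97.9%. With shared reads divided evenly, as deposited, the share of mir-219-2 in the 5' arm was 75.4% and 71.6%. Of the 5 arms most like mir-338-3p, 3 remained by Spearman's rho and 1 without the brain libraries. For mir-219-2-3p these were 2 and 0, and 2 with a pseudocount of 0.5. The cause of these moves was not tested. Depth limits testis most, where 3 reads are 0.0952 and 0.0853 times the ocm.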
